A study of Mus musculus with 6 samples.

Results

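The genes described here are 9 markers of fetal-like, regenerating or YAP-active gut epithelium, chosen by name from the 55487 genes counted in colonic crypt cells. They are Ly6a, Clu, Anxa1, Anxa3, Il33, Spp1, Ccn1, Ccn2 and Ankrd1. All 9 were found in the count files, and 7 of them were abundant enough to be tested. Spp1 and Ankrd1 were not, and are given as counts.

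Polyadenylated RNA of purified colonic crypts was sequenced in bulk, from C57BL/6 mice aged 4 weeks. The 3 control libraries came from mice labelled M14(f/f), whose M14 gene, read here as Mettl14, carries loxP sites on both alleles. The 3 mutant libraries came from mice labelled M14(f/f);Villin-Cre, which carry the same alleles and Cre recombinase driven by the Villin promoter, active in gut epithelium and not in stroma or immune cells. Controls carried no Cre, so effects of Cre and of losing Mettl14 cannot be told apart. Mettl14 encodes a subunit of the complex that writes N6-methyladenosine on RNA. The comparison asks which transcripts differ between mutant and control crypts, and these libraries measure neither that mark nor protein.

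After injury the gut epithelium can pass through a state that resembles the fetal gut. Cells in it lower genes of the crypt-base stem cells and raise surface and secreted proteins such as Ly6a (Sca-1), clusterin and annexins. The state depends on YAP and TAZ, coactivators that the Hippo kinases hold out of the nucleus and that act with TEAD factors on target genes such as Ccn1, Ccn2 and Ankrd1. Several of these markers are also made by fibroblasts, endothelial cells or macrophages.

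Library totals ran from 24181631 to 35183636 counts. Mettl14 itself stood at 20.9 to 26.2 CPM (counts per 1000000 counts of the library, scaled by TMM, which corrects for differences in RNA composition) in controls and at 10.5 to 13.99 CPM in mutants. Epithelial markers such as Epcam, Krt8 and Vil1 were abundant in every library, but their summed level over 10 genes was lower in mutants, at 9477 to 11626 CPM against 12423 to 13886 CPM in controls. Of the 10, 5 fell, these 3 among them, and 1, Cdh1, rose. Fewer fell without control 1 (2) or control 3 (3), and 1 fell without scaling beyond library totals. The call of Cdh1 was lost without control 1, 2 or 3 (edgeR adjusted p = 0.102, 0.131 and 0.137) and without mutant 2 or 3 (0.112 and 0.144). Mutant 1 stood apart from the other libraries. It held Xist at 652 CPM and the 4 Y-linked genes Ddx3y, Eif2s3y, Kdm5d and Uty below 1 CPM. Mutant 2 held both Xist, at 53.1 CPM, and the Y-linked genes, at 25.7 to 64.1 CPM. The controls and mutant 3 held Xist below 2 CPM. A row of ribosomal RNA took 12.9% of counts in mutant 1 and 5.16% to 8.90% in the others. Some results below are therefore also given without mutant 1, or without mutants 1 and 2. Not every change in these fits is listed.

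The 9 markers did not move as one set. Clu, Ly6a and Anxa1 rose, Il33 and Ccn2 fell, and Anxa3 and Ccn1 did not pass the test. A gene is said to rise or fall where edgeR's quasi-likelihood test gave it an adjusted p below 0.05, by Benjamini-Hochberg across the 18539 genes tested. By that rule 46.3% of all tested genes passed, with 23.5% higher and 22.8% lower, so a call alone sets none of these markers apart. The median log2 fold change of the 7 tested markers was 0.11, against 0.01 over all tested genes. For 5 of the 9 markers every mutant lay on one side of every control (higher in mutants for Ly6a, Clu and Spp1, lower for Il33 and Ccn2). Among all tested genes 56.9% were separated in this way, 28.7% higher and 28.2% lower. In a bulk sample a change in the share of cells that make a transcript and a change per cell cannot be told apart.

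**Figure D1:**
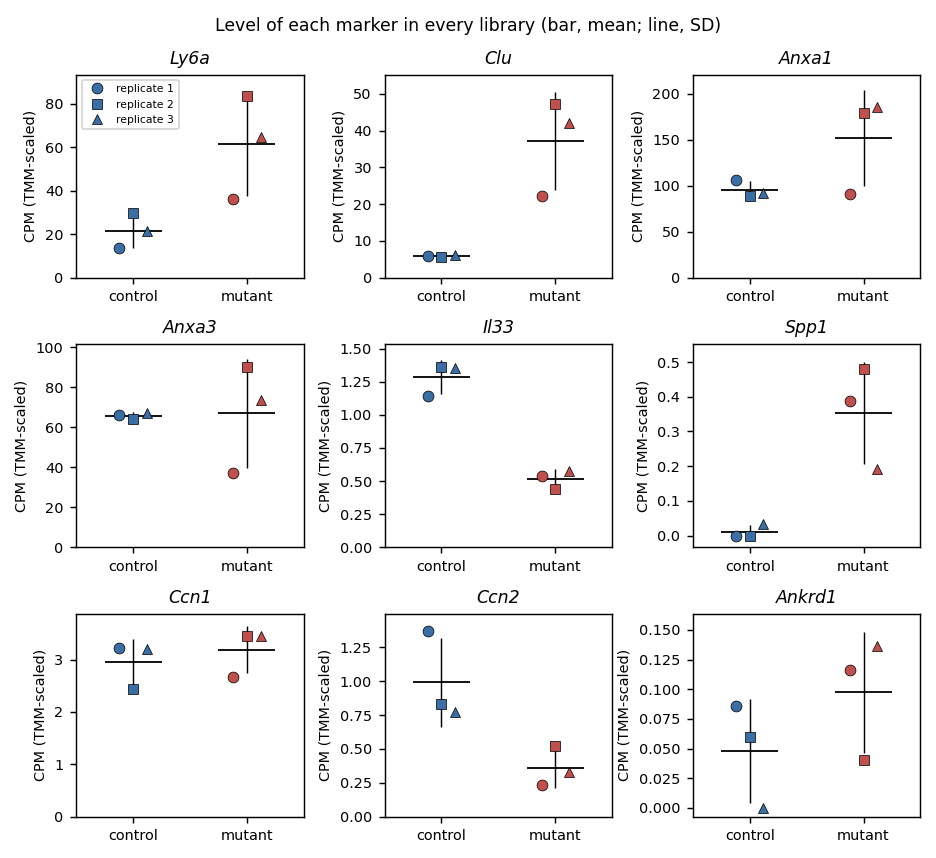
Level of each of the 9 markers in CPM (linear axes, TMM-scaled) in the 3 control and 3 mutant libraries, with symbols for replicate numbers, horizontal bars for means and vertical lines for SD. Clu stands at 5.73 to 6.23 CPM in controls and at 22.1 to 47.2 CPM in mutants, whereas Anxa3 in mutants lies on both sides of its controls.

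Clu (ENSMUSG00000022037.15, plus strand of chromosome 14, 65968483 to 65981547 on GRCm38) had the largest change of the tested markers. It encodes clusterin, a secreted chaperone whose transcript marks revival stem cells, and it is also made by epithelium over lymphoid follicles. Control 1 to 3 held 5.82, 5.73 and 6.23 CPM, and mutant 1 to 3 held 22.1, 47.2 and 42.1 CPM. The controls were nearly equal, and the lowest mutant lay well above them. The mean went from 5.93 ± 0.265 to 37.1 ± 13.3 CPM (SD, n = 3 each), and edgeR gave a log2 fold change of 2.65 (SE 0.246, edgeR adjusted p = 2.73e-05). It kept its call without each library in turn, at 2.44 to 2.90. Relative to Epcam, a general epithelial transcript, the controls held 0.00255 to 0.00287 Clu counts per Epcam count and the mutants 0.0157 to 0.0270. Epcam itself fell in mutants, with a log2 fold change of -0.43 (edgeR adjusted p = 0.00870), so this ratio differed 8.26-fold between the group means where the CPM of Clu differed 6.27-fold.

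Genes of M cells and the epithelium over lymphoid follicles rose in the same libraries, 12 of 12 tested with a median log2 fold change of 2.89. Spib, the transcription factor of M cell maturation, went from 2.85 ± 0.0815 to 145 ± 9.60 CPM. The summed level of that list was 276 to 302 CPM in controls and 1017 to 1118 CPM in mutants. In mutant 1 to 3 that sum was 1017, 1118 and 1040 CPM, and Clu stood at 22.1, 47.2 and 42.1 CPM. The part of such cells in the rise of Clu was not tested.

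Ly6a (ENSMUSG00000075602.10, minus strand of chromosome 15, 74994877 to 74998031) encodes Sca-1, a GPI-anchored surface protein of the Ly6 family that marks fetal-like epithelium and also endothelial and lymphoid cells. Controls held 13.9, 29.7 and 21.3 CPM, and mutants held 36.0, 83.5 and 64.9 CPM. Controls differed from one another by more than for Clu, and all mutants lay above them. The mean went from 21.6 ± 7.94 to 61.5 ± 23.9 CPM, which edgeR fitted as 1.51 on the log2 scale (SE 0.313, edgeR adjusted p = 0.00330). Leaving out single libraries gave 1.22 to 1.80, all past the threshold. Ly6a has near-copies in its family, and reads that align to several genes were not counted, so its level is uncertain.

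Of 15 other Ly6 family genes 9 were tested, of which 6 rose, 1 fell and 2 missed the threshold, and the median was 1.22. The number that rose was 8 without mutant 1. Slurp1, a secreted member, rose from 0.458 ± 0.0891 to 8.72 ± 4.11 CPM. Ly6d, a marker of squamous and early B cells, rose from 0.0806 ± 0.0192 to 2.70 ± 1.31 CPM, from controls at the level of 2 or 3 counts. Ly6c1, an endothelial and monocyte member close to Ly6a in sequence, rose from 0.229 ± 0.0864 to 1.36 ± 0.325 CPM. Lypd8, a secreted colonic member that holds flagellated bacteria off the mucosa, was the gene that fell, from 5152 ± 128 to 2691 ± 1044 CPM, with mutant 1 lowest at 1653 CPM. All 4 of these kept their direction under every scaling and every left-out library that was tried.

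Markers of other cells that can make Ly6a were measured beside it. Of 10 tested endothelial markers 2 rose and 1 fell, and the sum of 12 such markers was 15.7 to 17.0 CPM in controls and 22.6 to 25.6 CPM in mutants. Pecam1 rose from 5.54 ± 1.04 to 10.7 ± 0.916 CPM and Vwf from 2.24 ± 0.305 to 7.37 ± 1.57 CPM, while Emcn fell from 2.18 ± 0.698 to 1.051 ± 0.296 CPM. The call of Emcn was lost without control 2 (adjusted p = 0.0865), control 3 (0.0522), mutant 2 (0.0730) or mutant 3 (0.0638). The sum of 12 T and B cell markers was 4.54 to 6.61 CPM in controls and 6.97 to 10.97 CPM in mutants, with Cd4 and Cd8b1 the 2 that rose. Neither passed without mutants 1 and 2 (adjusted p = 0.0693 and 0.0587). There were 2.19 to 6.82 counts of Ly6a per Pecam1 count in controls and 3.11 to 8.55 in mutants, which overlap, and the ratio of the means was 1.41. Pecam1 is 1 of the 2 endothelial markers that rose, and the median log2 fold change of the 10 tested was -0.17. Per Epcam count, Ly6a stood at 0.00607 to 0.0143 in controls and 0.0256 to 0.0477 in mutants, a 3.70-fold difference between the means. Epcam itself fell. The part of endothelial and lymphoid cells in the rise of Ly6a was not tested.

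Ly6a is also induced by interferons. Of 21 interferon response genes 4 rose, 6 fell and 11 missed the threshold, and the median was 0.04. Irgm1, an interferon-induced GTPase, rose from 51.3 ± 3.34 to 82.7 ± 5.35 CPM, and Gbp5 and Ifit1 rose by 1.52 and 0.67 on the log2 scale. Irf8 and Igtp were among those that fell, with log2 fold changes of -0.63 and -0.70.

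Anxa1 (ENSMUSG00000024659.15, minus strand of chromosome 19, 20373428 to 20390944) encodes annexin A1, a calcium-dependent membrane-binding protein that limits inflammation through formyl peptide receptors. Controls held 106, 88.9 and 91.9 CPM, and mutants held 91.3, 179 and 186 CPM. Mutant 1 lay within the range of the controls, and mutants 2 and 3 lay far above it. The mean went from 95.8 ± 9.38 to 152 ± 52.6 CPM, or 0.67 on the log2 scale (SE 0.221, edgeR adjusted p = 0.0326). That call was fragile. It was lost without control 1, 2 or 3 (adjusted p = 0.0540, 0.0956 and 0.0967) and without mutant 2 or 3 (0.108 and 0.119). It was lost too with DESeq2 (0.0837) and limma-voom (0.0565). Without mutant 1 the log2 fold change was 0.92 (adjusted p = 5.52e-05).

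Anxa3 (ENSMUSG00000029484.12, plus strand of chromosome 5, 96793339 to 96845966) encodes annexin A3, a marker of regenerating crypts. Controls held 65.9, 64.1 and 67.2 CPM, and mutants held 37.1, 89.8 and 73.5 CPM. The controls hardly varied, whereas mutant 1 lay below them and mutants 2 and 3 above. The mean was 65.7 ± 1.59 CPM in controls and 66.8 ± 27.0 CPM in mutants, with a log2 fold change of 0.02 (SE 0.244, edgeR adjusted p = 0.947). The sign rests on single libraries. Without mutant 1 Anxa3 rose by 0.30 (adjusted p = 0.0232), and without mutant 2 the value was -0.25 (adjusted p = 0.413).

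Both annexins were lowest in mutant 1 among the mutants. From mutant 2 to mutant 3 Anxa1 went from 179 to 186 CPM and Anxa3 from 89.8 to 73.5 CPM. Anxa1 gained on Anxa3 in each mutant. There were 1.37 to 1.62 counts of Anxa1 per count of Anxa3 in controls and 1.99 to 2.53 in mutants. These ranges do not overlap, and mutant 1, at 2.46, lay near mutant 3, at 2.53. Of 9 other annexins tested 2 rose, 4 fell and 3 missed the threshold, and the median was -0.08. Without TMM or another scaling beyond library totals 2 fell, and 2 fell without mutant 3. Anxa8, an annexin of squamous epithelia, rose from 38.0 ± 5.54 to 162 ± 60.7 CPM, and Anxa5, a binder of exposed phosphatidylserine, from 31.2 ± 1.27 to 61.7 ± 5.66 CPM. Anxa13, an annexin of intestinal enterocytes, fell from 22.03 ± 4.18 to 10.5 ± 0.921 CPM, Anxa6 fell by 0.81 and Anxa7 by 0.26 on the log2 scale. The call of Anxa7 was lost without mutant 3 (adjusted p = 0.0510) and without scaling beyond library totals (0.119).

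**Figure D2:**
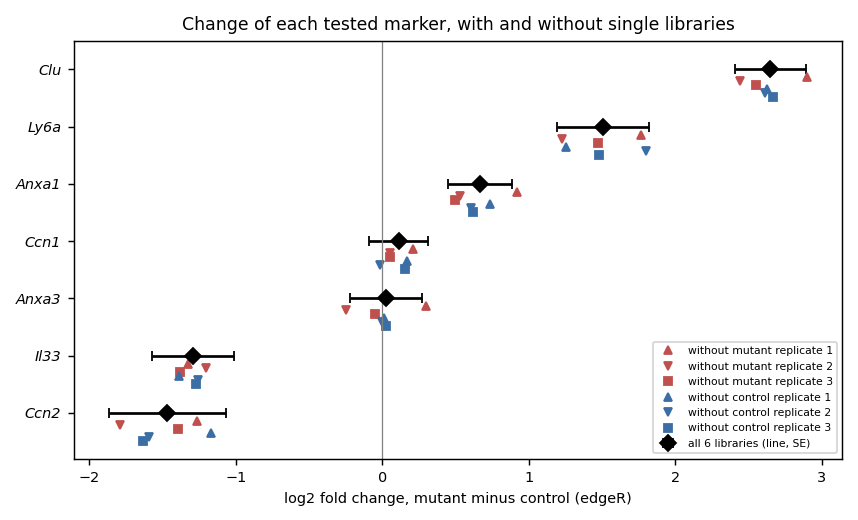
Log2 fold change (mutant minus control) of the 7 tested markers from edgeR, with black diamonds and SE lines for all 6 libraries and small symbols for fits without 1 library. Clu, Ly6a and Anxa1 stay above 0 and Il33 and Ccn2 below 0 in all 6 such fits, while Anxa3 runs from -0.25 to 0.30.

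Il33 (ENSMUSG00000024810.16, plus strand of chromosome 19, 29925114 to 29960718) encodes interleukin 33, an alarmin kept in the nucleus of epithelial, stromal and endothelial cells and released on damage. Controls held 1.14, 1.37 and 1.36 CPM, and mutants held 0.541, 0.440 and 0.574 CPM. The groups were far apart, and libraries within each group were close. The counts behind these levels were low, 128 in the 3 controls together and 46 in the 3 mutants. The mean went from 1.29 ± 0.126 to 0.519 ± 0.0698 CPM, a fitted log2 difference of -1.29 (SE 0.278, edgeR adjusted p = 0.00398). It kept its call without each library in turn (-1.39 to -1.20), and lost it without mutants 1 and 2 together (-1.19, adjusted p = 0.0642).

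The stromal genes Col1a2 and Col3a1, fibrillar collagens of fibroblasts, had the patterns nearest to Il33 of 10338 candidate genes. Likeness was the root mean square difference of log2 CPM over the 6 libraries, each gene centred on its own mean, and was 0.0257 for Col1a2 and 0.0685 for Col3a1. Col1a2 went from 23.7 ± 1.84 to 10.4 ± 1.26 CPM (log2 fold change -1.19, edgeR adjusted p = 3.01e-05). There were 0.0527, 0.0559 and 0.0539 Il33 counts per Col1a2 count in controls, and 0.0505, 0.0489 and 0.0501 in mutants. Since Col1a2 was picked for its likeness to Il33 over these same 6 libraries, the closeness of these ratios follows from that choice and is a description only. They rest on 11 to 46 Il33 counts per library. Of 12 fibroblast and stromal markers 7 fell, 1 rose and 4 did not pass, with a median of -0.79, and their sum was 230 to 263 CPM in controls and 123 to 141 CPM in mutants. Pdgfrb was the marker that rose, from 8.997 ± 0.908 to 22.6 ± 0.629 CPM. Of 8 smooth muscle markers 5 fell and none rose, and 3 fell without mutant 3. The part of stromal cells in the fall of Il33 was not tested.

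Il1rl1, which encodes the interleukin 33 receptor ST2, rose from 0.319 ± 0.187 to 0.918 ± 0.0671 CPM, opposite to its ligand (log2 fold change 1.51, edgeR adjusted p = 0.0127). Of 12 tested receptors and partners of the secreted markers 7 rose, 1 fell and 4 missed the threshold, and the median was 0.60. The count that rose was 4 without mutants 1 and 2. Itgav and Itgb1, integrin chains that bind osteopontin and CCN proteins, both rose, Itgav from 61.6 ± 3.87 to 135 ± 10.1 CPM and Itgb1 from 286 ± 2.03 to 431 ± 31.6 CPM. Lrp8, an apolipoprotein E receptor that also binds clusterin, rose from 9.02 ± 1.34 to 23.2 ± 4.72 CPM. Lrp2, which encodes the clusterin receptor megalin, was the 1 that fell, from 2.39 ± 0.209 to 1.40 ± 0.458 CPM. Its call was lost without control 1, 2 or 3 (adjusted p = 0.0813, 0.0550 and 0.0973) and without mutant 1 or 2 (0.0893 and 0.122). The log2 fold change of Lrp2 was -0.75 with all libraries and -0.35 without mutants 1 and 2 together. Fpr2, a receptor for annexin A1, had no count in any control and stood at 0.301 to 0.560 CPM in mutants.

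Spp1 (ENSMUSG00000029304.14, plus strand of chromosome 5, 104435118 to 104441050) encodes osteopontin, a secreted integrin ligand made by fetal-like epithelium and by macrophages. It had 0, 0 and 1 counts in controls and 10, 12 and 7 counts in mutants. Every mutant held more than every control, at 0.387, 0.480 and 0.191 CPM against at most 0.0323 CPM. In control 1 the absence of counts leaves room for at most 0.0856 CPM (3 counts). Summed over libraries the mutant level was 33.1 times that of controls, with a 95% exact interval of 5.48 to 1351 that covers counting error only. The low-count filter removed Spp1. With no filter edgeR gave an adjusted p of 6.91e-05 among 43508 genes, with a log2 fold change that depends on the prior count. That fit also gave Ly6a an adjusted p of 1.52e-49 and Anxa1 3.87e-11, against 0.00330 and 0.0326 with the filter. Its p-value for Spp1 therefore cannot be read like those with the filter.

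Markers of macrophages and dendritic cells moved in the same libraries as Spp1. Of 14 tested 11 rose and 2 fell, with a median of 1.80. Csf1r, the receptor that macrophages depend on, went from 2.18 ± 0.110 to 9.99 ± 2.44 CPM. The lysozyme gene Lyz2 went from 4.09 ± 0.388 to 18.4 ± 6.42 CPM, and the integrin gene Itgax reached 2.73 ± 0.712 CPM from 0.480 ± 0.0267 CPM. Among those that fell was the complement gene C1qa (7.69 ± 3.13 against 2.88 ± 0.715 CPM). The sum of the list was 50.3 to 58.4 CPM in controls and 82.4 to 112 CPM in mutants. Among neutrophil markers 4 of 5 tested rose, led by S100a8, from 0.0293 ± 0.0297 to 2.19 ± 1.26 CPM, while Elane had no count in 4 of the 6 libraries. The part of these cells in the higher Spp1 counts, and in the rise of Ly6a and of Anxa1, was not tested.

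The 3 classical YAP targets among the markers were all scarce. Ccn2 fell, Ccn1 did not pass the test, and Ankrd1 could not be tested. Ccn2 (ENSMUSG00000019997.11, plus strand of chromosome 10, 24595442 to 24598683) encodes connective tissue growth factor, a secreted matricellular protein. Controls held 1.37, 0.831 and 0.774 CPM, and mutants held 0.232, 0.520 and 0.328 CPM. All mutants lay below all controls, from 100 counts in controls and 31 in mutants. The mean went from 0.992 ± 0.329 to 0.360 ± 0.147 CPM, or -1.47 in log2 terms (SE 0.398, edgeR adjusted p = 0.0133). The call was lost without control 1 (-1.17, adjusted p = 0.0557) and without mutant 3 (-1.40, adjusted p = 0.0507). It was also lost without mutants 1 and 2 together (-1.62, adjusted p = 0.0610). Relative to Col1a2 the ratio of counts was 0.0308 to 0.0632 in controls and 0.0217 to 0.0578 in mutants, which overlap.

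Ccn1 (ENSMUSG00000028195.4, minus strand of chromosome 3, 145646976 to 145649981) encodes CYR61, the closest relative of connective tissue growth factor in the family. Controls held 3.22, 2.43 and 3.19 CPM, and mutants held 2.67, 3.44 and 3.45 CPM. The groups overlapped. The log2 fold change was 0.11 (SE 0.202, edgeR adjusted p = 0.678), and -0.02 without control 2. Summed over libraries the ratio of mutants to controls was 1.09, with an interval from counting error of 0.923 to 1.29.

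Ankrd1 (ENSMUSG00000024803.9, minus strand of chromosome 19, 36111961 to 36120099) encodes a nuclear ankyrin-repeat protein of muscle and of cells with active YAP. It had 3, 2 and 0 counts in controls and 3, 1 and 5 counts in mutants. These levels lie at or near the limit of detection, and the groups overlapped. The ratio of mutants to controls was 2.05, with a counting interval of 0.618 to 7.80, so no difference was detectable at this depth.

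Of the 4 other CCN genes only Ccn3 and Ccn4 could be tested. Ccn3, a matricellular family member known to restrain growth, fell from 144 ± 11.7 to 25.2 ± 9.69 CPM (a log2 change of -2.52, with SE 0.218, edgeR adjusted p = 1.74e-05), under every scaling tried. Ccn4, a Wnt-induced member, stood at 0.598 ± 0.159 and 0.297 ± 0.0150 CPM (adjusted p = 0.0505). With upper-quartile scaling, or without control 1, 2 CCN genes fell.

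The TEAD motif was looked up before transcript starts that RefSeq gives for these genes, because TEAD factors bring YAP to Ccn1 and Ankrd1. The RefSeq promoter table for GRCm38.p6 held 5 of the 9 markers, namely Anxa1, Il33, Spp1, Ccn1 and Ankrd1. It held no entry for Ly6a, Clu, Anxa3 and Ccn2. In the 250 bases before each start, GGAATG on either strand was found for Ccn1, Ankrd1 (2 matches), Anxa1 and Il33 (1 match at each of 2 starts), and not for Spp1. It was present in 12.6% of all 32851 such windows, and in at least 1 window of 14.4% of 27025 genes. The AP-1 motif TGANTCA, on either strand and sharing no overlap with these matches, was found in none of the 5. It was present in 6.7% of all windows and for 7.8% of genes. A match is a run of letters and not evidence of binding. The windows of Anxa1 and Ankrd1 lie in annotated exons over all 250 bases. The second Il33 window and the second Spp1 window lie inside their genes. The windows of Anxa1 and Ankrd1 and the second windows of Il33 and Spp1 are therefore not upstream of the whole gene. The window of Ccn1 and the first windows of Il33 and Spp1 are. The stretches of 30 bases around the matches follow, 5′ to 3′ on the strand of the gene, with the match in capitals (CATTCC is GGAATG on the other strand).
Ccn1, chr3:145650071-145650100, minus strand, 103 bases before the start: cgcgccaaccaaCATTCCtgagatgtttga
Ankrd1, chr19:36120037-36120066, minus strand, 210 bases before the start: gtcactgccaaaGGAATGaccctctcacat
Ankrd1, chr19:36119950-36119979, minus strand, 123 bases before the start: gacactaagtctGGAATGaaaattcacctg
Anxa1, chr19:20390890-20390919, minus strand, 236 bases before the start: actgcactgaacCATTCCtgtgaggaataa
Il33, chr19:29924970-29924999, plus strand, 131 bases before the start: gtaacattggcaGGAATGctattagcttat
Il33, chr19:29945671-29945700, plus strand, 107 bases before the start: tacacaccctcaCATTCCattcatatcgct

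Of these 4 genes Anxa1 rose, Il33 fell, Ccn1 did not pass the test and Ankrd1 was not tested. The whole window of Ccn1, a YAP target with 1 match, and the first window of Spp1, with none, are given as examples. Both lie outside annotated exons. They span chr3:145649986-145650235 for Ccn1 and chr5:104434861-104435110 for Spp1. Capitals again mark GGAATG or its reverse complement.
Ccn1, chr3.0:145649986.0-145650235.0, minus strand: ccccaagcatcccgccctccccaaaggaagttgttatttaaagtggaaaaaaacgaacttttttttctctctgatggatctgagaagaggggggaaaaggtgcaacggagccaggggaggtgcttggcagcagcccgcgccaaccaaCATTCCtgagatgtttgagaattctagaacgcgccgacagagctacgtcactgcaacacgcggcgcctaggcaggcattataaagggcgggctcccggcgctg
Spp1, chr5.0:104434861.0-104435110.0, plus strand: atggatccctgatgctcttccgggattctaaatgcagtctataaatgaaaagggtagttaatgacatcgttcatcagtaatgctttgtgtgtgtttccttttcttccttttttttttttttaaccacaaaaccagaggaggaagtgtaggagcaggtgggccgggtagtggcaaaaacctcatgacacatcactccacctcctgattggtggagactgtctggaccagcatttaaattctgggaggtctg

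The Hippo pathway itself divided evenly, with 7 of 20 genes up, 7 down and 6 not passed (median -0.08). Among the genes that rose were Yap1, the coactivator, from 69.4 ± 2.35 to 93.5 ± 1.02 CPM, and the DNA-binding partners Tead4, from 5.08 ± 0.540 to 12.7 ± 1.304 CPM, and Tead2, from 4.65 ± 0.244 to 10.1 ± 2.04 CPM. Tead3 fell from 22.4 ± 1.44 to 13.9 ± 0.192 CPM. Nf2, which encodes the upstream inhibitor merlin, fell from 161 ± 4.59 to 98.02 ± 11.97 CPM, and Mob1b, a cofactor of the Lats kinases, from 75.9 ± 6.18 to 52.3 ± 4.71 CPM. Without scaling beyond library totals 4 of the 20 fell.

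Of 19 other YAP target genes tested 8 rose, 3 fell and 8 missed the threshold, and the median was 0.24. Arhgef17, a guanine nucleotide exchange factor, rose from 3.70 ± 0.201 to 13.1 ± 1.38 CPM, Ajuba, a LIM protein that inhibits Lats kinases, from 2.73 ± 0.264 to 8.94 ± 1.59 CPM, and the growth factor gene Tgfb1 from 7.19 ± 0.752 to 14.2 ± 0.255 CPM. Dock5, Myof and Rbms3 fell by 0.25, 0.21 and 0.62 on the log2 scale. No more than 1 of these 3 falls remained a call without control 2, mutant 1 or mutant 2, and none without scaling beyond library totals or without mutants 1 and 2 together.

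Ccn1 and Ccn2 also answer to serum and to tissue dissociation. Of 18 tested immediate-early and dissociation genes 5 rose, 1 fell and 12 missed the threshold, and the median was 0.19, and 8 rose without mutant 1. Junb went from 78.3 ± 4.86 to 191 ± 23.8 CPM, Egr1 from 9.66 ± 1.87 to 23.1 ± 6.43 CPM and Ier3 from 4.06 ± 0.858 to 7.94 ± 1.00 CPM. Myc fell from 58.4 ± 7.58 to 41.8 ± 4.68 CPM.

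The other genes of the fetal-like and regenerating state mostly rose. Of 19 tested 12 rose, 1 fell and 6 missed the threshold (median 0.98), against 23.5% of all tested genes that rose. The number that rose was 14 without mutant 1. This list was written with earlier results of these data known, so its count is no independent evidence. Msln, which encodes mesothelin, rose from 13.4 ± 0.268 to 147 ± 15.2 CPM (log2 fold change 3.45, edgeR adjusted p = 2.33e-08). Marcksl1, an actin regulator, rose from 17.6 ± 0.532 to 126 ± 2.25 CPM and is counted in the M cell list too. Plaur, the urokinase receptor, rose from 4.70 ± 0.521 to 22.7 ± 4.89 CPM. Ereg, an EGF receptor ligand, was the gene that fell, from 8.10 ± 2.51 to 4.76 ± 0.764 CPM. Its call was lost without control 2 (adjusted p = 0.0867), control 3 (0.0558) or mutant 3 (0.0797).

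**Figure D3:**
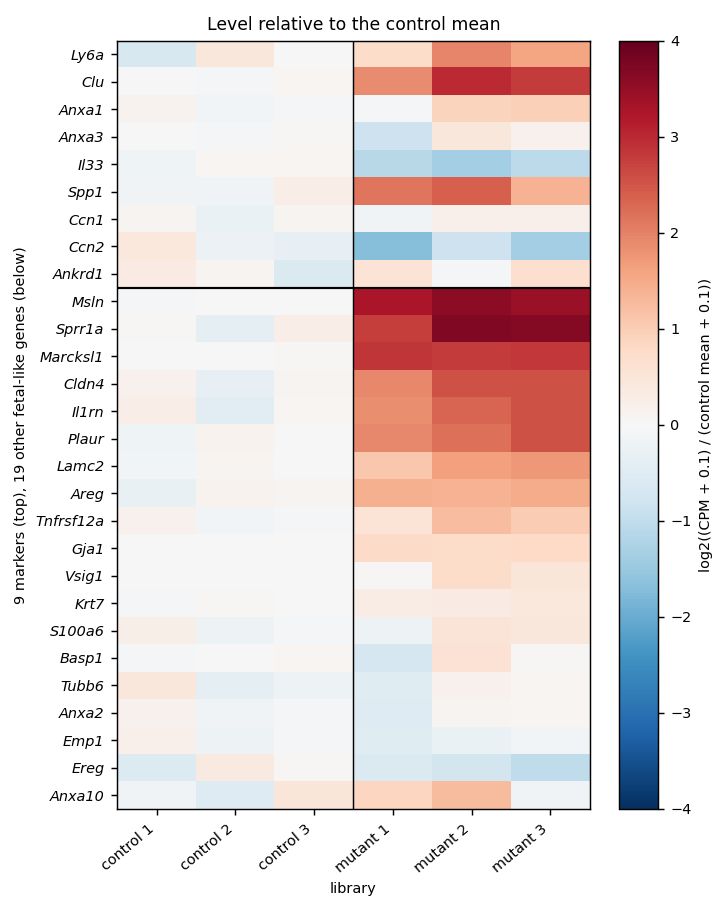
Colour map of the level in each library relative to the control mean, as log2 of (CPM + 0.1) over (control mean + 0.1), for the 9 markers above the line and 19 other fetal-like genes below it. Columns are the 6 libraries, red is higher and blue lower. Il33 and Ccn2 are blue in all 3 mutants, and Clu, Ly6a and Spp1 are red beside most of the genes below the line.

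Mutant 1 held the lowest level among the 3 mutants for 6 of the 7 tested markers, the exception being Il33, which was lowest in mutant 2. The same held for 15 of the 19 other fetal-like genes tested and for 36.7% of all tested genes. From mutant 1 to mutant 3 the level differed 1.80-fold for Ly6a, 1.90-fold for Clu, 2.03-fold for Anxa1 and 1.98-fold for Anxa3, and 1.06-fold for Il33. Mutant 1 is the library with Xist, without the Y-linked genes and with the largest ribosomal share, and the part of these in its lower levels was not tested. Within mutants the SD was 34.6% to 40.4% of the mean for Ly6a, Clu, Anxa1 and Anxa3, and in controls it was 2.41% to 9.80% for Clu, Anxa1 and Anxa3 but 36.7% for Ly6a.

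Levels per length, in RPKM (CPM per kilobase of exons), put Anxa1 first in controls at 32.9 ± 3.22, followed by Anxa3 at 18.0 ± 0.436 and Ly6a at 17.9 ± 6.59. Anxa3 and Ly6a did not differ beyond their spread. Clu stood at 1.72 ± 0.0772 and Ccn1 at 1.46 ± 0.222 RPKM, with ranges that did not overlap. Il33 at 0.446 ± 0.0438 and Ccn2 at 0.347 ± 0.115 RPKM overlapped, and Ankrd1 and Spp1 lay below 0.02 RPKM. In mutants Anxa1 at 52.2 ± 18.1 and Ly6a at 51.01 ± 19.8 RPKM could not be separated. Anxa3 at 18.3 ± 7.41 and Clu at 10.8 ± 3.86 RPKM overlapped as well. Ccn1 followed at 1.58 ± 0.222 RPKM. Below it came Spp1 at 0.214 ± 0.0894, Il33 at 0.180 ± 0.0242 and Ccn2 at 0.126 ± 0.0513 RPKM, and the ranges of Spp1 and Il33, and of Il33 and Ccn2, overlapped. Ankrd1 came last, at 0.0338 ± 0.0176 RPKM.

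Genes with patterns most like each called marker, by the distance defined for Il33, were these. For Clu they were Tnip3, an inhibitor of NF-kB signalling (0.156), and Spink1, a trypsin inhibitor (0.160). For Ly6a they were Fer1l4 (0.172) and Lpcat4, an enzyme of phospholipid remodelling (0.242). For Anxa1 they were Fbxo6, a glycoprotein-binding ubiquitin ligase subunit (0.0983), and Lamb3, a laminin chain (0.105). For Ccn2 they were Sycn (0.179) and Wfdc2, a secreted protease inhibitor (0.193). Among the tested markers themselves Anxa3 and Ccn1 were nearest to each other (0.306), and Clu and Ccn2 farthest apart (1.97). A lower abundance pulls log2 values together at this prior count of 2, which bears on Il33 and Ccn2. At a prior count of 0.5 the gene next to Sycn for Ccn2 was Prdx6 (0.227), with Wfdc2 at 0.230.

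**Figure D4:**
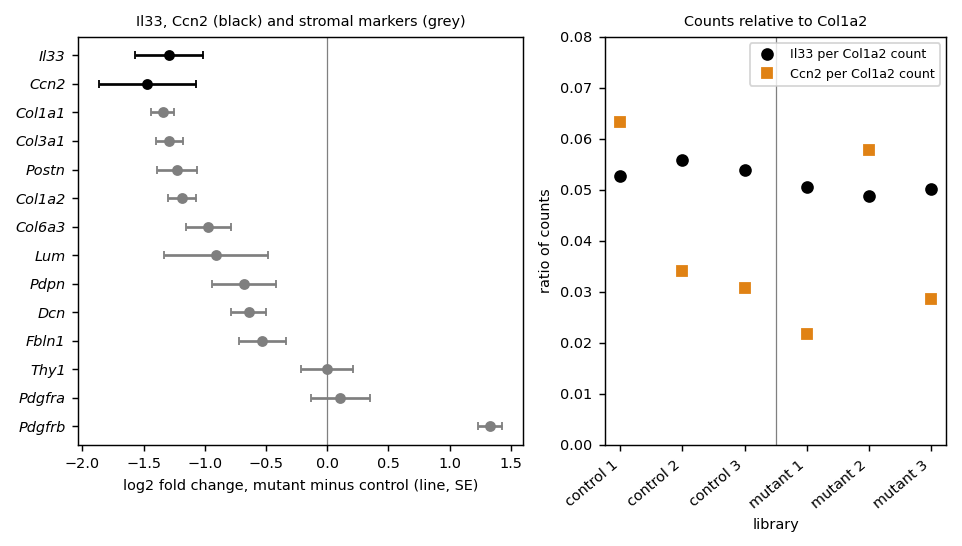
Left, log2 fold change with SE of Il33 and Ccn2 (black) and of 12 fibroblast and stromal markers (grey). Right, counts of Il33 and Ccn2 per Col1a2 count in each library: Il33 stays at 0.0489 to 0.0559 in all 6 libraries, while Ccn2 varies from 0.0217 to 0.0632. Col1a2 was chosen for its likeness to Il33 in these libraries, so the contrast between both ratios follows from that choice.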

How the data were processed

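RNA-seq counts of 6 libraries, 3 controls and 3 mutants, were used. The deposited values are raw fragment counts per gene. The submitters' processing notes name Trim Galore 0.6.5 for trimming, STAR 2.6.1d for alignment and the build GRCm38. featureCounts 1.6.4 counted paired fragments over exons of GENCODE vM25 with strand setting 1, and no option for reads with several alignments or on several genes, per the file headers. Such reads were therefore left out, which bears on Ly6a, and on Anxa3 and Spp1 where a predicted gene lies within them on the same strand. Each file held 55487 genes, and every row named a gene.

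The analysis used edgeR 4.0.16 under R 4.3.3. Genes passed filterByExpr (minimum count 10, minimum total 15), leaving 18539. TMM factors scaled the libraries. The 2-sided quasi-likelihood F test took genotype as its only term. SEs are the log2 fold change divided by the square root of F. Floors and intervals from counts (exact binomial, 95%) cover counting error only, since PCR copies are not independent molecules. The design text speaks of 3 pairs of mice, and libraries are taken as separate mice, but the labels do not say that each is 1 mouse. Mutant 2, with Xist and Y-linked transcripts, adds to that doubt about n = 3, and if mice were shared or mixed the p-values measure only the spread between these samples. Chi-square per gene between libraries of the same group was 14.04 to 90.8, so none was a repeat of another.

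The 9 markers and 17 gene lists were chosen with earlier results of these data known. Some lists share genes, so their counts are not separate. The M cell list shares Marcksl1 with the fetal-like list, Anxa5 with the annexins and Aif1 with the macrophage list. Ly6g is in the Ly6 and neutrophil lists, and Anxa2 and Anxa10 are in the annexin and fetal-like lists. All markers were named, with up to 3 genes per list and direction by smallest p and, for each called marker, the 2 genes of nearest pattern with a mean of at least 5 CPM. Il1rl1, Fpr2, Ccn4, Ly6g, Elane, Prdx6, Xist and the Y-linked genes were named after their values were seen. Some genes that the rule names are not reported here. Alternatives were other scalings, filters and tests (DESeq2 1.42.0, limma 3.58.1), a replicate block, leaving out libraries and dropping the ribosomal row. The script was tested on simulated data, where the share of false calls among edgeR's calls was above the nominal 5%, so adjusted p-values near the threshold, and counts of calls, are to be read with that in mind.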

Additional observations from a re-analysis of the deposited data

How the results depend on the processing

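With all 6 libraries 3 markers rose and 2 fell. The number that rose was 2 to 4 without single libraries, and the number that fell was 1 to 2. It was 4 that rose without mutant 1, where Anxa3 passed as well. Without control 1, 2 or 3 or mutant 3 it stayed at 3, but not with the same markers. Anxa1 lost its call in those fits, and Spp1, having passed the filter, took its place. The number that fell was 1 when at least 1 CPM in 3 libraries was required, since Ccn2 was then not tested. It was 1 in a test against a 1.5-fold change and 0 without mutants 1 and 2 together, where 4 libraries remained. Against a 1.5-fold change 1720 of all tested genes rose and 1027 fell, in place of 4354 and 4235. Clu, Ly6a and Il33 kept their calls under every other scaling, filter and tool.

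The Anxa3 log2 fold change, 0.02 with all libraries, was -0.012 with no filter on low counts, -0.068 with limma-voom and -0.062 with the replicate block. Without single libraries it ran from -0.25 to 0.30. Without control 2 it was -0.01, without mutant 2 -0.25 and without mutant 3 -0.05. The Ccn1 log2 fold change ran from -0.020 to 0.21 without single libraries, and was below 0 without control 2. The cause was not tested.

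Over all tested genes same-numbered libraries did not deviate together. The correlations of their deviations from the group means were -0.12, -0.07 and -0.14, and the other 6 cross pairs ran from -0.01 to 0.13. With 3 libraries per group these values are not independent of one another, so they cannot exclude a pairing. With the replicate block 2 markers rose and 2 fell, and 3789 of all tested genes rose and 3614 fell. The edgeR adjusted p of Anxa1 was then 0.0639. For Ly6a it was 1.69e-05, with an SE of 0.0876 in place of 0.313.

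For the other named genes, 1176 refits gave the same call and 93 lost it, and none changed direction. Depth limits Spp1, Ankrd1, Ccn2 and Il33, whose counts in a library were at most 48.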

Other observations

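The pentamer GGACT, one form of the sequence in which N6-methyladenosine is written, was counted on the sense strand of the longest protein-coding GENCODE vM21 transcript of each marker. Spp1, Ccn1 and Anxa3 held 1.99, 1.98 and 1.88 per kilobase, and Ccn2 held the lowest density, 0.402 per kilobase. The median over 14212 tested genes was 1.054 per kilobase. The remaining 5 markers lay close to it, from 0.990 per kilobase for Ankrd1 to 1.195 for Anxa1. These densities rest on 1 to 4 pentamers per transcript, too few to decide whether markers that rose and those that fell differ in density. Letters also do not show whether a site is methylated.

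Ly6g, a neutrophil marker of the Ly6 family, was counted at 8.22 to 12.9 CPM in controls and 11.1 to 34.3 CPM in mutants. The neutrophil gene S100a8 stood below 0.06 CPM in all controls. Ly6g was among the 5 genes nearest to Ly6a in pattern (0.284).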
